A study of Homo sapiens with 6 samples.

Results

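RN7SL1, RN7SL2, RN7SK, RMRP and RPPH1 are genes of short noncoding RNAs that RNA polymerase III makes and that carry no poly(A) tail. They were taken by their symbols from a table of 56305 genes, so 5 of 56305 genes are described here. The 5 were chosen by their class and by their measured CPM in these 6 libraries, with the difference between ZW27941 and DMSO already known, so their levels and fold changes are given as a description, without p-values. RNA came from MOLM13, a human acute myeloid leukemia line with an FLT3 internal tandem duplication. Cells received the vehicle DMSO (3 libraries) or 1 μM ZW27941 (3 libraries) for 24 h. ZW27941 is a PROTAC, a molecule that brings the m6A RNA methyltransferase METTL3 to the VHL ubiquitin ligase for degradation. Both groups are the same line, and no label says whether replicates were separate cultures, so the spread between libraries may be technical.

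The RNAs of RN7SL1 and RN7SL2 are the RNA backbone of the signal recognition particle (SRP), which guides ribosomes that make secreted or membrane proteins to the endoplasmic reticulum. RN7SK RNA (7SK) holds the elongation kinase P-TEFb inactive together with HEXIM proteins. RPPH1 encodes the RNA of RNase P, which trims the 5′ ends of tRNA precursors, and RMRP the RNA of the related RNase MRP, which cuts ribosomal RNA precursors. RN7SL genes carry promoter elements inside the transcribed sequence, whereas the promoters of RN7SK, RMRP and RPPH1 lie upstream and can hold an octamer that OCT1 binds.

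How alike these RNAs are bears on how far reads can be told apart. In GENCODE v29 on GRCh38, RN7SL1 is a misc_RNA of 299 bases at chr14:49586580-49586878 on the plus strand, within an intron of RPS29, which runs on the other strand. RN7SL2 is a misc_RNA of 300 bases at chr14:49862550-49862849 on the minus strand, within an intron of the lincRNA AL627171.2 on the same strand. The lincRNA AL627171.1 starts 223 bases from RN7SL2 on the other strand, and neither lincRNA has a row under its name. Of 299 aligned bases, 295 (98.7%) are identical between RN7SL1 and RN7SL2. Reads were paired and 150 bases long. Of the 150 windows of that length in RN7SL1, 56 (37.3%) are also in RN7SL2 and 60 (40.0%) in the copy RN7SL5P. Of the 151 windows in RN7SL2, 43 (28.5%) are also in the copy RN7SL4P and 17 (11.3%) in RN7SL5P. A single read from such a window fits several genes equally well, although its mate may tell them apart, so the split between RN7SL1 and RN7SL2 is uncertain.

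RMRP (268 bases, chr9:35657751-35658018, minus strand) and RPPH1 (333 bases, chr14:20343075-20343407, minus strand) are unlike each other and unlike RN7SL. Their sequences are printed 5′ to 3′ as DNA, with GGAC in capitals, a core form of the motif that METTL3 methylates. The stretch of RPPH1 covers its bases 34 to 333 at chr14:20343075-20343374.
RMRP: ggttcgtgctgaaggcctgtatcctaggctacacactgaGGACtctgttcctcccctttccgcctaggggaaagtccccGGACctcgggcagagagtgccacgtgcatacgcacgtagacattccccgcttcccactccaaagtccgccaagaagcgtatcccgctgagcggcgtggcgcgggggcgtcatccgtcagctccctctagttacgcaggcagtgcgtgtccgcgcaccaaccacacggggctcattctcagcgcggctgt
RPPH1: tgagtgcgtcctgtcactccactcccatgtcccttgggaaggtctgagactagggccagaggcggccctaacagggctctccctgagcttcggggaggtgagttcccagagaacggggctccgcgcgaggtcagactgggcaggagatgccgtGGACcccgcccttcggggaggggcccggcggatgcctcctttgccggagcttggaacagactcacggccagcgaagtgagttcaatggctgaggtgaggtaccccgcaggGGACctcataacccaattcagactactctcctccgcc
GGAC occurs at 2 places each in RMRP, RPPH1 and RN7SK and at 1 place each in RN7SL1 and RN7SL2. It was searched on the transcript strand only and is also in 66.9% of the 5145 GENCODE transcripts of 268 to 333 bases, so its presence does not set these RNAs apart. None of the 119 windows of 150 bases in RMRP is found in a transcript of a gene with another name. GENCODE has a second gene named RMRP, a ribozyme entry of 264 bases at chr9:35657754-35658017 on the same strand. Windows shared with that entry were not counted, because the search went by gene name. All 184 windows of RPPH1 are also in AL355075.4, a GENCODE entry on the same strand that covers it, and all 179 windows of RN7SK are in RF00100, an entry that covers RN7SK (328 bases, chr6:52995621-52995948, plus strand). AL139099.4 covers RN7SL1 in the same way. None of these 3 covering entries has a row under that name in the count tables.

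Each of RMRP and RPPH1 has a protein gene close upstream. RMRP starts 272 bases from CCDC107, which runs the other way, and RPPH1 starts 175 bases from PARP2, which also runs the other way, by the GENCODE starts. RefSeq (GRCh38.p14) gives the 250 bases upstream of these neighbours, at chr9:35658042-35658291 for CCDC107 and chr14:20343385-20343634 for PARP2, both on the plus strand. They are printed in that orientation, with the octamer ATGCAAAT in capitals. By the RefSeq starts, CCDC107 lies 274 bases from the start of RMRP and PARP2 228 bases from that of RPPH1. The PARP2 window begins within RPPH1, whose 5′ end is at 20343407, and runs past the GENCODE start of PARP2 at 20343582.
CCDC107 upstream: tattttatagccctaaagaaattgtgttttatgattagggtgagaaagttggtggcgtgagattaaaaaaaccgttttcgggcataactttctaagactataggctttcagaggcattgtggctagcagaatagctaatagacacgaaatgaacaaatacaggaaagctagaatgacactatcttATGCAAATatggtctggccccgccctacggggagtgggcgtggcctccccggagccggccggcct
PARP2 upstream: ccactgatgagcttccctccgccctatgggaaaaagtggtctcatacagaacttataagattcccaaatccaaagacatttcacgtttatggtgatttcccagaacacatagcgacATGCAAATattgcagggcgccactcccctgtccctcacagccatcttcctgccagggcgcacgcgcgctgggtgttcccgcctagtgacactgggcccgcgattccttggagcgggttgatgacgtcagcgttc
The octamer lies 209 bases from the start of RMRP and 94 bases from the start of RPPH1. On either strand it is in 623 of 35116 RefSeq promoter windows of 300 bases (1.77%). It was the only motif searched there, and a match describes the letters and not the binding of a factor.

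The libraries held 143454176 to 153825333 counts on genes with DMSO and 143621822 to 178744976 with ZW27941. The protocol names 50000000 raw reads per sample, which is fewer than these counts, and the difference is not accounted for in the sources used here, so intervals and floors take each count as 1 read. Of the 56305 genes, 20399 passed the expression filter and were tested. METTL3 RNA was at 120 to 122 CPM (counts scaled to the same library total with TMM factors) with DMSO and at 119 to 128 CPM with ZW27941, and the level of this RNA says nothing about its degraded protein. All 10 myeloid markers had counts, with a summed level of 2581 to 2651 CPM with DMSO and 2829 to 2908 CPM with ZW27941. CD68 was low in both (0.231 and 0.222 CPM on average). The 10 markers of other cell types summed to 14.4 to 14.7 CPM with DMSO and 11.4 to 12.2 CPM with ZW27941, of which the keratin gene KRT18 made up 12.7 and 10.2 CPM on average.

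Both SRP RNA genes were lower with ZW27941 on average. RN7SL2 was at 49.4, 81.2 and 66.2 CPM in DMSO replicates 1, 2 and 3 and at 43.3, 22.0 and 37.3 CPM in ZW27941 replicates 1, 2 and 3. The highest ZW27941 library thus stayed below the lowest DMSO library, by a margin that is small beside the range within either group. The mean level with ZW27941 was 0.522 times that with DMSO, and the log2 fold change was −0.93 (SE 0.15, n = 3 per group). Each SE given here comes from the edgeR fit, which borrows spread from other genes. It does not measure the gene's own spread between replicates, which is given further below. In bulk RNA, fewer cells of a type and less RNA per cell cannot be told apart.

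RN7SL1 did not separate the groups. Its DMSO libraries were at 53.7, 75.6 and 59.4 CPM. With ZW27941, replicates 1 and 2 were at 33.7 and 24.3 CPM, below all DMSO libraries, but replicate 3 was at 67.9 CPM, above DMSO replicates 1 and 3. The means were 62.9 ± 11.4 CPM with DMSO and 42.0 ± 22.9 CPM with ZW27941 (SD, n = 3), a log2 fold change of −0.58 (SE 0.20). Without ZW27941 replicate 3 it was −1.11, and without ZW27941 replicate 2 it was −0.31. The direction was the same in both cases, whereas the size depended on which library was left out.

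ZW27941 replicate 3 also differed in how the counts were split between the SRP RNA genes. RN7SL1 took 64.5% of their summed counts in that library (exact 95% interval 63.8 to 65.2%) and 43.8 to 52.5% in the other libraries. If reads from shared windows were assigned to either gene, the sum of both is less exposed to that split. If such reads were left uncounted, the sum lacks them too, and the setting is not given in the sources used here. The summed level was 103, 157 and 126 CPM with DMSO and 77.1, 46.3 and 105 CPM with ZW27941, so the groups overlapped. The sum had a log2 fold change of −0.75 (SE 0.17), and with all 679 RN7SL rows added it was −0.66 (SE 0.13).

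**Figure D1:**
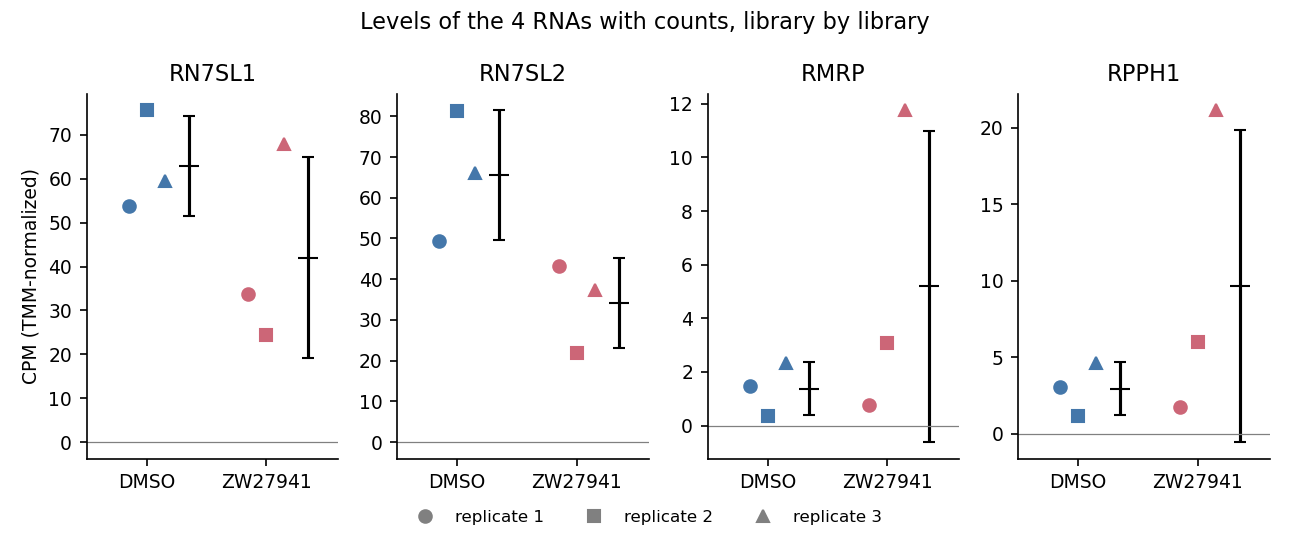
TMM-normalized CPM (y axes, linear, each panel with its own scale) of RN7SL1, RN7SL2, RMRP and RPPH1 in the 3 DMSO (blue) and 3 ZW27941 (red) libraries. Circles, squares and triangles are replicates 1, 2 and 3, and black bars are the mean ± SD (n = 3). Only RN7SL2 separates the groups, and ZW27941 replicate 3 is far above the other 5 libraries in RMRP (11.8 CPM) and RPPH1 (21.2 CPM).

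RMRP and RPPH1 had higher means with ZW27941, and both differences rested largely on 1 library. RMRP was at 1.47, 0.345 and 2.32 CPM in the DMSO libraries and at 0.749, 3.06 and 11.8 CPM in the ZW27941 libraries, in the order of replicates 1, 2 and 3. ZW27941 replicate 1 thus lay within the DMSO range, replicate 2 somewhat above it and replicate 3 far above it. The mean was 1.38 ± 0.989 CPM with DMSO and 5.19 ± 5.81 CPM with ZW27941 (SD, n = 3), and the log2 fold change was 1.91 (SE 0.57). Leaving out ZW27941 replicate 3 brought the log2 fold change to 0.43.

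RPPH1 ran through the same libraries in the same order. Its levels were 3.04, 1.17 and 4.62 CPM with DMSO and 1.75, 6.02 and 21.2 CPM with ZW27941. The lowest was DMSO replicate 2 and the highest ZW27941 replicate 3, as for RMRP, and the groups overlapped. The mean was 2.95 ± 1.73 CPM with DMSO and 9.64 ± 10.2 CPM with ZW27941 (SD, n = 3), a log2 fold change of 1.70 (SE 0.50) that fell to 0.36 without ZW27941 replicate 3.

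Counting error was small beside these swings. RMRP had 52 counts in DMSO replicate 2 (exact Poisson 95% interval 38.8 to 68.2) and 1881 counts in ZW27941 replicate 3 (1797 to 1968), and these intervals cover counting error only. Between the lowest and the highest library RMRP differed 34.1-fold and RPPH1 18.0-fold. Over the same libraries RMRP made up 22.7 to 35.7% of the summed counts of the pair, the lowest share being that of DMSO replicate 2. The RNAs of RNase MRP and RNase P therefore varied together between libraries, within DMSO as well as within ZW27941.

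RN7SK was listed at 0 counts in all 6 libraries. A floor of 3 counts per library is 0.0166 to 0.0209 CPM, which limits what was counted and not the level of the RNA if its reads were left out. A separate row named 7SK also had 5 or fewer counts in every library. RN7SK and its 293 copies summed to 6.74 ± 0.203 CPM with DMSO and 6.15 ± 0.200 CPM with ZW27941 (SD, n = 3). HTSeq can leave out a read that falls on 2 overlapping genes, and the annotation and overlap setting behind these counts are not given in the sources used here, so the part of RF00100 in the 0 was not tested. GSTA4, which starts 243 bases from RN7SK on the other strand, was at 1.34 ± 0.0999 and 1.27 ± 0.126 CPM (SD, n = 3; adjusted p = 0.608 by edgeR's quasi-likelihood F-test, Benjamini-Hochberg adjusted over all genes tested).

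Of the 5 genes, 4 were tested, and all 4 had an adjusted p under 0.05 in edgeR's quasi-likelihood test, 2 in each direction. DESeq2's Wald test called 1 of them, RN7SL2, as did edgeR without DMSO replicate 2. Of all genes tested, 30.1% were called, 16.3% higher and 13.8% lower, and nothing is read from the count of members because the contrast was known when they were picked. Groups did not overlap for 1 of the 4, against 41.6% of all genes tested. Per kilobase of transcript, RN7SL1 was at 210 ± 38.1 and RN7SL2 at 219 ± 53.1 CPM per kb with DMSO (SD, n = 3). RPPH1 was at 8.85 ± 5.19 and RMRP at 5.14 ± 3.69 CPM per kb. The SRP RNA genes lay above RMRP and RPPH1 in 6 of 6 libraries, whereas RN7SL1 was above RN7SL2 in 3 of 6. RMRP was below RPPH1 in 6 of 6 libraries, but their ranges overlapped within each group. Of the 5 genes, RN7SL1 and RN7SL2 thus had the high counts here, RMRP and RPPH1 had low counts, and RN7SK was listed at 0. Because reads on overlapping entries may not have been counted, a low count or a 0 does not show that the RNA was scarce in the cells.

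The spread between replicates was wide beside that of genes of like level. The pooled SD of log2 CPM within a condition was 0.564 for RN7SL1, 0.445 for RN7SL2, 1.72 for RMRP and 1.45 for RPPH1. Among the 1000 genes nearest in level to each, the median SD was 0.0334, 0.0346, 0.116 and 0.0814, and at least 99.9% of them had a smaller SD. Within DMSO alone the highest library was 1.41 times the lowest for RN7SL1, 1.65 times for RN7SL2, 6.72 times for RMRP and 3.94 times for RPPH1. Within ZW27941 these ratios were larger, 2.79, 1.97, 15.7 and 12.1 in the same order. This is a description, since these genes were picked with their values known.

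**Figure D2:**
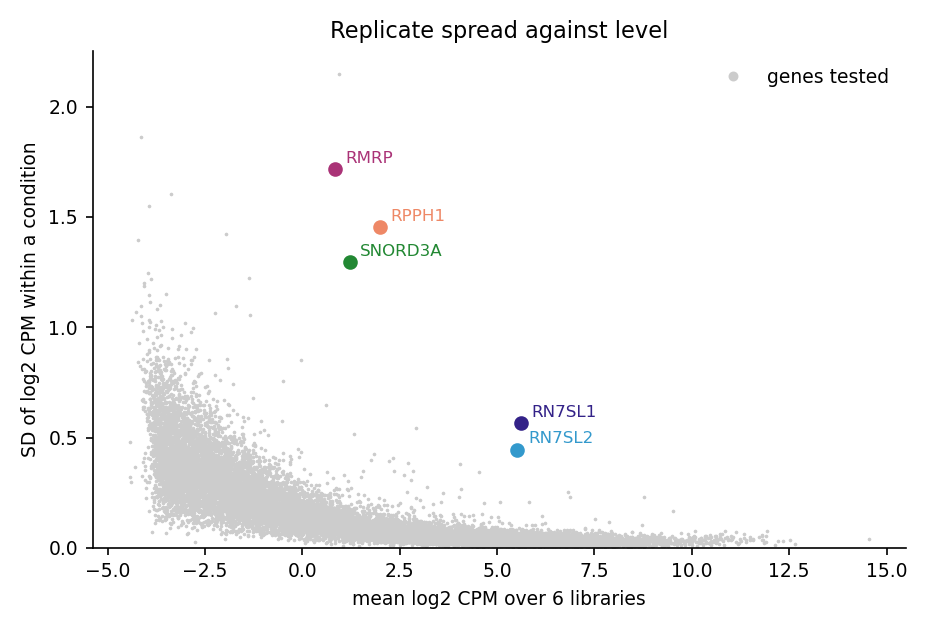
Pooled SD of log2 CPM within a condition (y axis) against mean log2 CPM over the 6 libraries (x axis) for all 20399 genes tested (grey) and for RN7SL1, RN7SL2, RMRP, RPPH1 and SNORD3A (coloured). The coloured points lie far above the grey band at their level, with RMRP at 1.72 and RN7SL2 at 0.445.

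SNORD3A, the Pol II transcript of the U3 snoRNA used in ribosomal RNA processing, had the pattern most like RMRP and RPPH1 among genes above a limit on level. Likeness was the root mean square (RMS) difference of gene-centred log2 CPM over the 6 libraries, searched among 12228 genes whose mean log2 CPM was 1 or more. SNORD3A was at 1.53, 0.855 and 2.30 CPM with DMSO and at 1.21, 3.30 and 12.6 CPM with ZW27941, with an RMS difference of 0.213 to RPPH1 and 0.468 to RMRP. RMRP and RPPH1 themselves differed by 0.289. The next nearest genes within that limit, the snoRNA SNORA73B and the mitochondrial pseudogene MTCO1P12, were at RMS differences of 0.976 and 1.10 from RPPH1. SNORA73B was at 2.09 to 2.54 CPM with DMSO, and with ZW27941 it was at 1.85, 2.34 and 4.80 CPM. Without ZW27941 replicate 3 the log2 fold change of SNORD3A went from 1.86 to 0.50.

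Other quantities also stood apart in ZW27941 replicate 3. Reads aligned to several places made up 5.25% of the reads tallied there, against 3.63 to 4.07% in the other libraries, and reads not aligned 18.1%, against 15.5 to 17.0%. MT-RNR1, the mitochondrial small-subunit ribosomal RNA and 1 of the 5 genes nearest to the mean pattern of the RNAs with counts, was at 560 CPM there and at 359 to 442 CPM in the other libraries. With the larger MT-RNR2 added, the sum was 5237 CPM there, within the 5038 to 5316 CPM of the other libraries. The other 4 nearest to that mean were SNORA73B, MTCO1P12, EEF1A1P19 and RPL41P1. HIST1H1B, a replication-dependent linker histone gene without a poly(A) tail, was chosen after its values were seen. It was at 0.153, 0.0729 and 0.307 CPM with DMSO and at 0.0943, 0.458 and 1.22 CPM with ZW27941, with RMS differences of 0.183 to RPPH1 and 0.387 to RMRP, both smaller than those of SNORD3A. MIR3687-1, also of low counts, was at 0.318 from RPPH1 and 0.437 from RMRP. The 89 histone rows of HIST1 to HIST4 summed to 79.6, 80.9 and 84.5 CPM with DMSO and to 86.7, 92.6 and 96.9 CPM with ZW27941. The part of these quantities in the levels of RMRP and RPPH1 was not tested. Whether libraries were made by poly(A) selection or by ribosomal RNA depletion is not given in the sources used here.

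**Figure D3:**
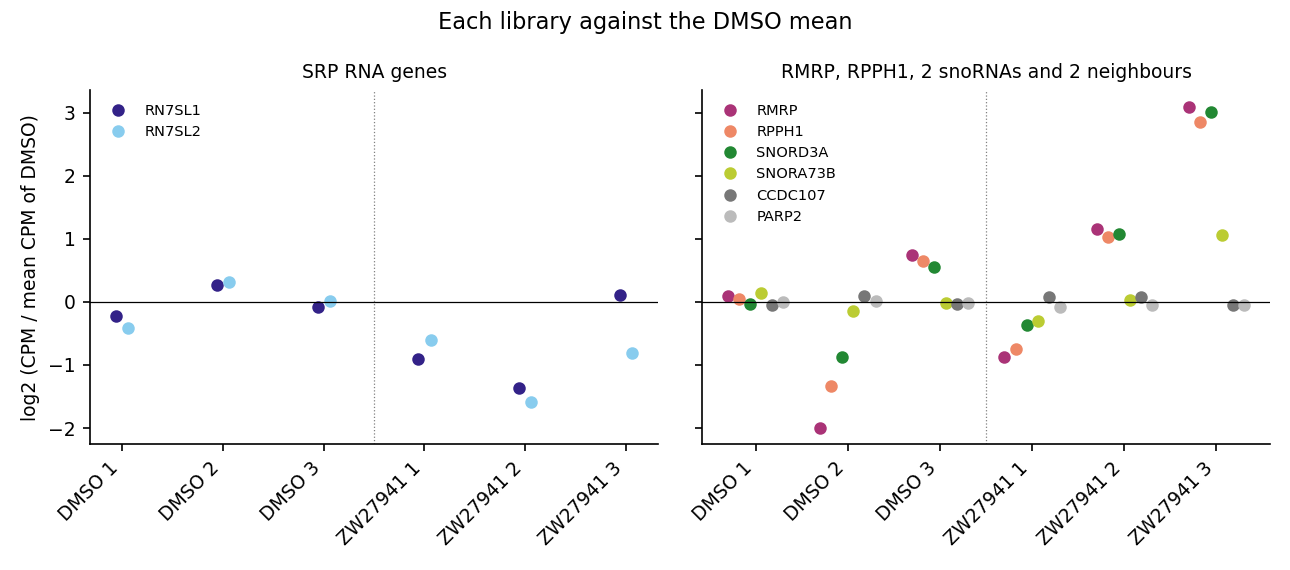
log2 of CPM over the DMSO mean (y axis) in each of the 6 libraries (x axis) for RN7SL1 and RN7SL2 (left) and for RMRP, RPPH1, SNORD3A, SNORA73B, CCDC107 and PARP2 (right). RMRP, RPPH1 and SNORD3A are lowest in DMSO replicate 2 and highest in ZW27941 replicate 3, at 3.09, 2.84 and 3.01, while CCDC107 and PARP2 stay near 0 in every library.

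The neighbours whose upstream windows are printed above did not show this pattern. PARP2, a DNA repair ADP-ribosyltransferase, was at 31.7 ± 0.364 CPM with DMSO and 30.4 ± 0.290 CPM with ZW27941 (SD, n = 3), a log2 fold change of −0.06 (adjusted p = 0.126 by edgeR's quasi-likelihood F-test, Benjamini-Hochberg adjusted over all genes tested). CCDC107 was at 7.49 ± 0.410 and 7.69 ± 0.390 CPM, a log2 fold change of 0.04 (adjusted p = 0.691 from the same edgeR test). Over the 6 libraries PARP2 varied 1.06-fold and CCDC107 1.10-fold, against 18.0-fold for RPPH1 and 34.1-fold for RMRP, although the small difference in PARP2 left no overlap between its groups. RPS29, the ribosomal protein gene around RN7SL1, was at 777 ± 4.81 and 760 ± 25.6 CPM (adjusted p = 0.395 from the same edgeR test).

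RN7SL1 and RN7SL2 had other nearest genes. Among genes whose mean log2 CPM was 1 or more, RN7SL2 was most like RP11-75C10.6, KB-1208A12.3 and SDS, the serine dehydratase gene, at RMS differences of 0.263, 0.314 and 0.324. SDS was at 4.23 to 4.67 CPM with DMSO and 2.12 to 2.54 CPM with ZW27941. KB-1208A12.3, CTA-390C10.10 and RP11-442H21.2 were nearest to RN7SL1 within the same limit, at 0.354, 0.389 and 0.391, and RN7SL1 and RN7SL2 differed by 0.387. With no limit on level, genes with few counts came nearer, B3GNT4 at 0.149 to RN7SL1 and RN7SL4P at 0.105 to RN7SL2. RN7SL2 was 1.74 from RPPH1 and 2.00 from RMRP, so the SRP pair and the RNase pair had unlike patterns.

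Of the 677 RN7SL copies, 390 were at 0 in every library and 76 were tested. Of these 76, 11 were lower and 1 was higher (15.8% called, against 30.1% of all genes tested), with a median log2 fold change of −0.19, against 0.00 for all genes tested. Only RN7SL4P and RN7SL5P share a window of 150 bases with RN7SL1 or RN7SL2, and both were lower without overlap between groups. RN7SL4P was at 0.788, 1.24 and 1.20 CPM with DMSO and at 0.743, 0.402 and 0.676 CPM with ZW27941, a log2 fold change of −0.81 (SE 0.18, adjusted p = 0.00184 by edgeR's quasi-likelihood F-test, Benjamini-Hochberg adjusted over all genes tested). Its library order was that of RN7SL2, from which it differed by an RMS of 0.105. RN7SL5P was at 0.977, 0.325 and 2.13 CPM with DMSO and at 0.200, 0.0901 and 0.225 CPM with ZW27941, a log2 fold change of −2.71 (SE 0.44, adjusted p = 6.28e-05 from the same edgeR test). RN7SL5P was chosen for its shared windows after its values were seen, and because reads fit both copies and members, neither copy is separate evidence on the SRP RNA. The copies with the most counts beside RN7SL4P did not pass the test, RN7SL381P with a log2 fold change of 0.09 (adjusted p = 0.525) and RN7SL316P with 0.19 (adjusted p = 0.249).

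Most other small RNAs listed under single gene names were thinly counted. Of 14 other Pol III RNAs with a row, 5 were at 0 in every library and 2 were tested, RNU6ATAC of the minor spliceosome (log2 fold change 0.19, adjusted p = 0.204) and the brain RNA BCYRN1 (0.14, adjusted p = 0.472), by the same edgeR test. Rows under the family names Y_RNA, Metazoa_SRP and U6 are outside these lists. Y_RNA was at 17.9 ± 0.446 CPM with DMSO and 15.2 ± 0.508 CPM with ZW27941 (SD, n = 3; log2 fold change −0.23, adjusted p = 6.55e-05), without overlap between groups. Metazoa_SRP had a log2 fold change of −0.19 (adjusted p = 0.0386), also without overlap, and U6 one of −0.37 (adjusted p = 0.294), all by the same edgeR test. Of 23 Pol II small RNAs, 6 were at 0 and 3 were tested. The U3 genes SNORD3A (log2 fold change 1.86) and SNORD3B-1 (1.04, adjusted p = 0.0356) were higher, the latter at only 9 to 26 counts a library. The U3 gene SNORD3B-2 was not called (log2 fold change 0.18, adjusted p = 0.68 by the same edgeR test), and its groups overlapped. SNORD3C had 3 or fewer counts in every library and SNORD3D had 0. DESeq2's Wald test did not call SNORD3A (adjusted p = 0.139) and gave SNORD3B-1 no adjusted p. RNU12 of the minor spliceosome had a log2 fold change of −0.48 (adjusted p = 0.411). Of 132 snoRNAs and scaRNAs tested, 11 were lower and 2 were higher (9.85% called, against 30.1% of all genes tested). The 2 higher were the same U3 genes. The tested snoRNAs and scaRNAs had a median log2 fold change of −0.20. The most counted of them, SNORD104 and SCARNA15, had log2 fold changes of 0.08 (adjusted p = 0.464) and −0.04 (adjusted p = 0.711). None of the 17 tested RN7SK copies passed the edgeR test, 2 of them had an unadjusted p under 0.05, and DESeq2 called 0. The 3 RMRP and RPPH1 copies were at 0.

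**Figure D4:**
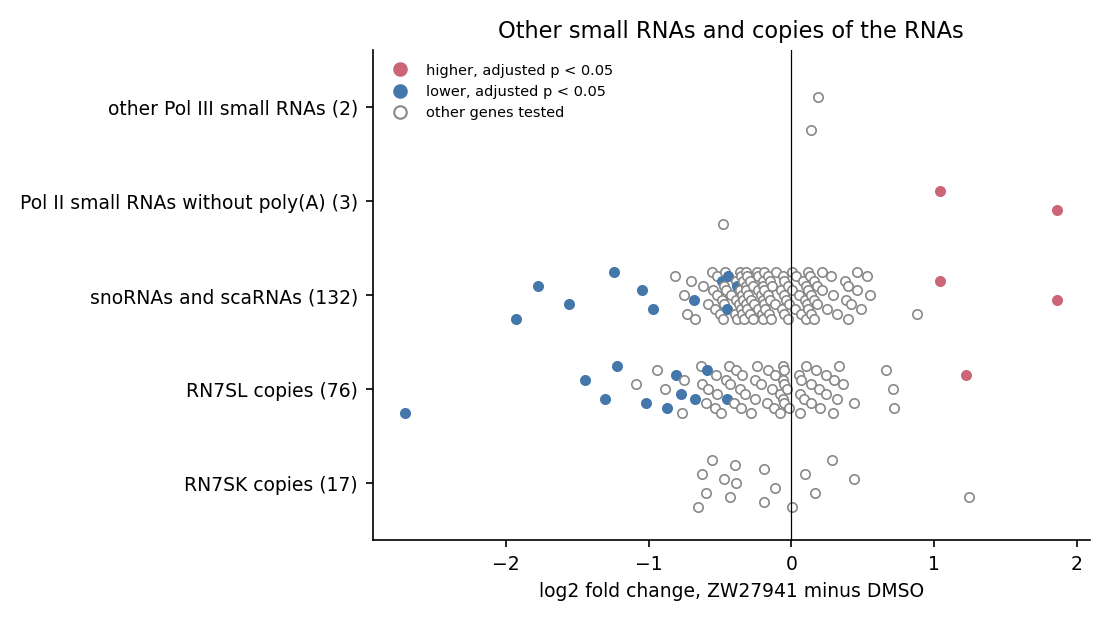
log2 fold change, ZW27941 minus DMSO (x axis), of each tested gene in 5 lists of small RNAs (y axis, number tested in parentheses). Filled red points were higher and filled blue points lower at an adjusted p under 0.05, and open points were not called. Filled points on the right are SNORD3A, SNORD3B-1 and 1 RN7SL copy, and those on the left 11 snoRNAs and 11 RN7SL copies.

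Genes for the proteins that bind, make or trim these RNAs changed little. Of 80 such genes, all tested, 18 were higher and 14 lower (40.0% called, against 30.1% of all genes tested), and the median log2 fold change was 0.01. The balance turned with the scaling, to 16 higher and 20 lower with upper quartile factors and 20 higher and 10 lower with library size only. In the SRP list of 8 genes, 1 was higher and 1 was lower, the pair that forms the Alu-domain dimer. SRP9 went from 234 ± 5.84 to 251 ± 4.77 CPM (SD, n = 3), a log2 fold change of 0.10 (SE 0.03, adjusted p = 0.00445 by edgeR's quasi-likelihood F-test, Benjamini-Hochberg adjusted over all genes tested), and SRP14 from 163 ± 2.24 to 148 ± 3.21 CPM, a log2 fold change of −0.14 (SE 0.02, adjusted p = 0.000175 from the same edgeR test). SRP54, which binds signal sequences, had a log2 fold change of −0.05 (adjusted p = 0.185).

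In the list of 7SK and P-TEFb proteins, 3 of 7 were higher and 1 was lower. The P-TEFb inhibitors HEXIM1 and HEXIM2 rose by 0.13 (SE 0.03, adjusted p = 0.000403) and 0.35 (SE 0.08, adjusted p = 0.00112) on the log2 scale, and the kinase CDK9 rose by 0.11 (SE 0.03, adjusted p = 0.00339), all by the same edgeR test. HEXIM2 was low, at 3.78 ± 0.324 CPM with DMSO and 4.81 ± 0.270 CPM with ZW27941 (SD, n = 3). LARP7, which binds the 3′ end of 7SK, had a log2 fold change of −0.01 (adjusted p = 0.814). In the list of RNase P and RNase MRP proteins, 3 of 11 were higher and 1 was lower. The subunit POP5 went from 48.0 ± 1.75 to 56.3 ± 1.45 CPM (log2 fold change 0.23, SE 0.03, adjusted p = 5.74e-06). RPP25 and its paralogue RPP25L had log2 fold changes of 0.19 (adjusted p = 8.41e-05) and 0.21 (adjusted p = 0.000175). These subunits varied by a few percent between replicates, whereas the RNAs they bind varied severalfold.

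Of 18 Pol III subunit genes, 5 were higher and 4 lower, and of 19 genes for initiation factors and the repressor MAF1, 3 were higher and 3 lower. POLR2E, a subunit shared by all nuclear polymerases, had a log2 fold change of −0.11 (SE 0.03, adjusted p = 0.00282), and POLR3D and POLR3GL, which are Pol III subunits, had 0.11 (adjusted p = 0.00289) and 0.14 (adjusted p = 0.00428) by the same edgeR test. POLR2F had the largest difference of the list, a log2 fold change of −0.73 that did not pass the test (adjusted p = 0.11), at a level of only 0.197 ± 0.0179 CPM with DMSO. MAF1 went from 90.8 ± 1.31 to 103 ± 2.49 CPM (SD, n = 3; log2 fold change 0.18, SE 0.03, adjusted p = 2.16e-05). GTF3C6 and GTF3C4 of TFIIIC, which binds promoters inside genes such as those of tRNAs, had log2 fold changes of 0.18 (adjusted p = 0.000726) and 0.12 (adjusted p = 0.00288).

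Of 17 genes for La, the RNA exosome and trimming enzymes, 3 were higher and 4 lower. SSB, the gene of the La protein that holds the 3′ ends of new Pol III transcripts, went from 199 ± 1.78 to 178 ± 2.82 CPM (SD, n = 3; log2 fold change −0.16, SE 0.02, adjusted p = 2.44e-05 by edgeR's quasi-likelihood F-test, Benjamini-Hochberg adjusted over all genes tested). The exosome ring gene EXOSC5 had a log2 fold change of −0.25 (SE 0.03, adjusted p = 1.61e-06) and the exosome cap gene EXOSC3 one of 0.23 (SE 0.03, adjusted p = 2.56e-05). The exosome genes named did not move one way.

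**Figure D5:**
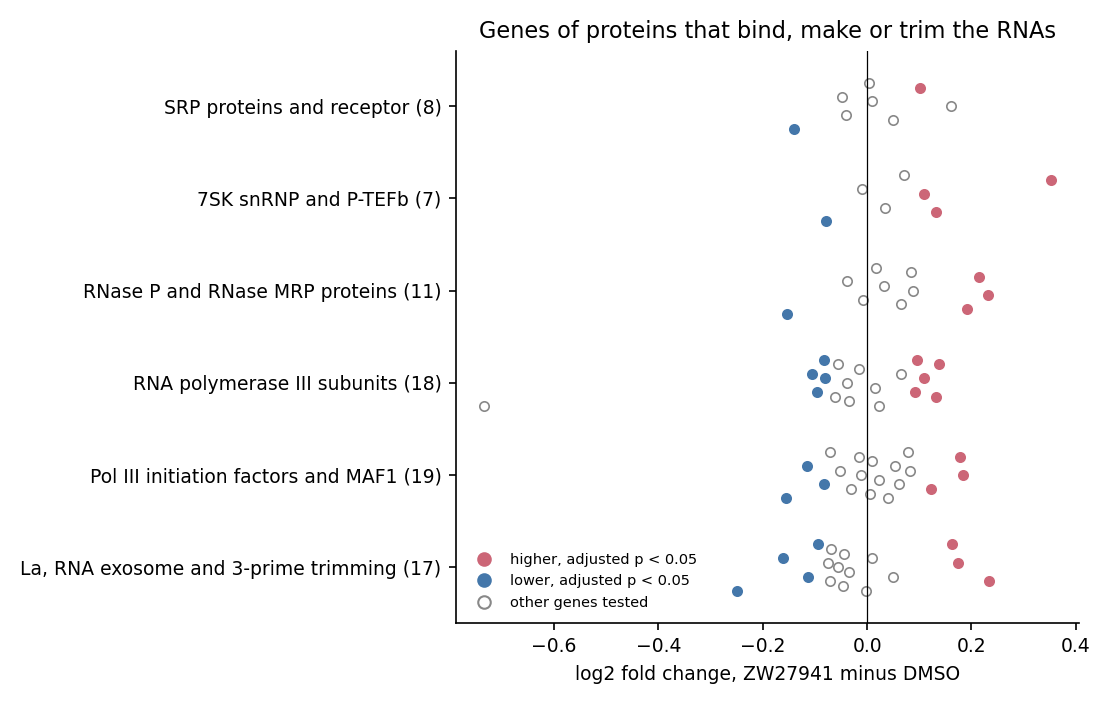
log2 fold change, ZW27941 minus DMSO (x axis), of each tested gene in 6 lists of proteins (y axis, number tested in parentheses). Filled red points were higher and filled blue points lower at an adjusted p under 0.05, open points were not called, and called genes lie between −0.25 (EXOSC5) and 0.35 (HEXIM2).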

How the data were processed

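RNA-seq of 3 DMSO and 3 ZW27941 libraries of MOLM13 was analysed. The authors deposited raw read counts per gene symbol, 1 set per library, with 56305 genes and 5 HTSeq tallies (37.4 to 39.8% of the reads tallied), which were left out of library sizes and tests. Per the submitters' processing notes, HISAT2, SAMtools 1.19.2, HTSeq 2.0.3 and the build hg38 were used. The annotation and the strand and multiple-alignment settings are not given in the sources used here.

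Counts were fitted in R 4.3.3 with edgeR 4.0.16 (filterByExpr, TMM factors, quasi-likelihood test, no covariates, Benjamini-Hochberg adjustment over 20399 genes, threshold 0.05). CPM used TMM factors, and log2 CPM a prior count of 2. An SE was the absolute log2 fold change divided by the square root of the F statistic of the quasi-likelihood test. That statistic uses dispersions moderated over all genes, so an SE is not a gene's own replicate spread. P-values set the difference between groups against the spread between these libraries only, which may be technical. Intervals and floors cover counting error only. Alternatives were other scalings and filters, DESeq2 1.42.0, the replicate number as a block and each library left out in turn. For RN7SL1 and RN7SL2, sums of RN7SL rows were a further alternative. Steps were tested on simulated counts of 20136 genes. Of 100 log2 changes of 0.5, 69 were called, and of 100 log2 changes of 1, 85 were called, with 15 false calls.

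The members, gene lists and rules were chosen with earlier results of these data known. Genes named were the members, METTL3, the 3 lowest p among called genes of each protein list, the 3 nearest in pattern to each member and 5 nearest to their mean, the 3 most counted of each small RNA list, and genes overlapping a member or starting within 1 kb. SRP54, LARP7, POLR2F, CD68, KRT18, HIST1H1B, RN7SL5P, SNORD3B-2, SNORD3C, SNORD3D, Y_RNA, Metazoa_SRP and U6 were named after their values were seen. Transcripts and coordinates came from GENCODE v29 (GRCh38) and upstream windows from RefSeq (GRCh38.p14); no member had a RefSeq promoter entry. The sequences of RN7SL1 and RN7SL2 are not reported here.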

Additional observations from a re-analysis of the deposited data

How the results depend on the processing

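Moves were judged against each gene's own SD within a condition. For RMRP (1.72) and RPPH1 (1.45) that SD is wide and includes ZW27941 replicate 3, so a smaller move does not show a stable size. The log2 fold changes of RN7SL1, RN7SL2, RMRP and RPPH1 kept their sign under every alternative, and moved by less than that SD in each. Over the fits that left out a library they ran from −1.11 to −0.31 for RN7SL1, −1.14 to −0.70 for RN7SL2, 0.43 to 2.52 for RMRP and 0.36 to 2.21 for RPPH1. Over the other alternatives for single genes they ran from −0.68 to −0.57, −0.96 to −0.92, 1.63 to 1.91 and 1.42 to 1.71. Summing RN7SL1 and RN7SL2 gave −0.75, and summing all RN7SL rows gave −0.66. Of the 4, 1 to 4 were called in the fits without a library and 1 by DESeq2, which was RN7SL2. It was the one called in all 10 settings run for single genes. Nothing is read from these calls, because the 4 were picked with the contrast known and the settings reuse the same libraries. All 17 protein genes named by rule were also called in all 10, but the rule picked them for a low p in these same data. Protein genes called lower (14) numbered 7 without DMSO replicate 1 and 9 without ZW27941 replicate 1 or 2, with a range of 7 to 16 over left-out libraries. With upper quartile factors 16 were higher and 20 lower, and with library size only 20 and 10. Called Pol III subunits (9) numbered 4 without DMSO replicate 2 (range 4 to 8), and called genes of La, the exosome and trimming (7) numbered 11 with upper quartile factors. Small RNA genes called higher (3) or lower (22), whose alternatives were added after seeing the data, numbered 0 and 9 with DESeq2, which gave some of them no adjusted p, and 1 was higher at 10 or more counts in every library. Higher calls ran from 0 without DMSO replicate 2 to 6 without ZW27941 replicate 1, with 1 without ZW27941 replicate 2. No cause of these shifts was tested.

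The replicate numbers gave no clear pairing: over all genes tested, deviations of same-numbered libraries correlated at −0.01, 0.01 and 0.02. The same-numbered library was still the best match for both libraries of replicate 3 and for ZW27941 replicate 2. Correlations over all genes, many of them thinly counted, cannot exclude a pairing. With the replicate block, 6010 genes were called, against 6149 without it, the 4 log2 fold changes were −0.68, −0.95, 1.63 and 1.42, and 18 protein genes were higher and 11 lower. Reads of 150 bases that fit several genes, 3 libraries a group, a library preparation that is not given and thin counts of small RNAs limit these results.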
